A study of Mus musculus with 14 samples.

Results

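The oxidative phosphorylation subunits examined here are the protein-coding genes of the deposited table whose symbols place them in respiratory complexes I to V. They were taken by symbol (Nduf a, b, c, s or v followed by a number, Cox4 to Cox8, Uqcr, Atp5, Sdha to Sdhd, and the mt- prefix), which gave 97 of the 48363 genes with values and of the 21831 protein-coding genes among them. Of the 97, 84 are encoded in the nucleus and 13 in the mitochondrial genome, and by name 44 belong to complex I, 4 to complex II, 9 to complex III, 21 to complex IV and 19 to complex V. The symbol rule leaves out assembly factors and the electron carriers, and it takes in a few genes that are not core subunits of the complex they are named for: Ndufa4 is known as a subunit of complex IV, Cox7a2l acts in supercomplexes, and Atp5s and Atp5sl are not part of the ATP synthase core.

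The 14 libraries are RNA-seq libraries of regulatory T cells (Tregs, CD4+FOXP3+) sorted by flow cytometry, with the YFP reporter carried by the Foxp3-Cre allele, from pooled spleen and inguinal, axillary and brachial lymph nodes of untreated mice. There were 5 libraries of cKO Tregs (miR-15/16 fl/fl with Foxp3-Cre), 4 of WT Tregs (miR-15/16 wt/wt with Foxp3-Cre), 2 of WT CD25lo Tregs and 3 of WT CD25hi Tregs, the last 2 groups being bins of CD25 staining from WT mice. Cre is driven from the endogenous Foxp3 locus, so both miR-15/16 clusters are lost only after Foxp3 comes on, and a cKO Treg may have lost them at different times. The mice of the study fell in 2 age ranges, both sexes were used, and neither is given for single libraries in the sources used here. Nothing beyond the label of biological replicate says how the animals relate, so the p-values measure the spread between these libraries.

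Oxidative phosphorylation passes electrons from NADH (complex I) and succinate (complex II) through complex III to oxygen at complex IV, and complex V makes ATP from the proton gradient so built. Complex II is wholly nuclear encoded. The other complexes combine nuclear subunits with subunits read from the circular mitochondrial genome, where long transcripts start on each strand and are then cut into single mRNAs. Tregs are known to rely on respiration more than activated conventional T cells do.

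The comparison of cKO with WT Tregs asks which genes depend on miR-15 and miR-16, short RNAs that lower the mRNAs carrying a match to their seed. The mature strands are shown because the search of the subunit mRNAs for matches rests on their seed, bases 2 to 8, in capitals (RefSeq, GRCm38.p6). miR-16-5p is encoded at chromosome 3 next to miR-15b-5p and again at chromosome 14 next to miR-15a-5p.
mmu-miR-15a-5p: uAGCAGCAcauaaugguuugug
mmu-miR-15b-5p: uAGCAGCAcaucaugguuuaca
mmu-miR-16-5p: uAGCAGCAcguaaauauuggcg
All 3 share the seed. Of 78 subunit genes that were tested and had an annotated 3′ UTR, 4 held a match (5.13%), that is TGCTGCT, which pairs with bases 2 to 8, or GCTGCTA, which pairs with bases 2 to 7 and ends in an A. Of all tested genes 3536 of 12731 held one (27.8%). The subunits' 3′ UTRs were short, with a median of 202 bases against 1140 bases over the tested genes, and the 2 shares were not matched for that length. The matches lie in Atp5g1 (3 sites), which encodes subunit c of the ATP synthase, in Cox6b2, and in the complex I genes Ndufb4 and Ndufv2. The longest annotated 3′ UTR of each gene was searched, which for Atp5g1 spans 4252 bases. Whether the Tregs express these longest forms was not tested. A site is given for each gene, with the match in capitals, and that of Ndufv2 is of the second kind.
Atp5g1: ccagccgtcccTGCTGCTttgactcc
Cox6b2: taaagttattgTGCTGCTAa
Ndufb4: ggaacgtgagcTGCTGCTgaggcgct
Ndufv2: agtaacttgcaGCTGCTAaatattat
None of these 4 mRNAs was called in either comparison. Cox6b2 and Ndufb4 had few reads, at most 82.6 and 101 normalized counts in any library. Their estimates in cKO against WT Tregs had an SE of 1.31 and 1.15 on the log2 scale, so the test says little about them. Atp5g1 had 204, 254, 200.5, 122 and 258 normalized counts in cKO Tregs, against 332, 286, 325 and 237 in WT Tregs. The 2 groups overlapped in 2 cKO libraries (log2 fold change −0.54 ± 0.35 SE, adjusted p = 0.48). Ndufv2, a core flavoprotein subunit of complex I, had 1387 to 1758 normalized counts in cKO Tregs and 1492 to 1904 in WT Tregs.

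The libraries held 30055573 to 35226685 reads in genes. Values are normalized counts, that is reads divided by a size factor of the library, and fold changes are differences of log2(normalized count + 1). In the sorted cells Cd4 (35747 to 45018 normalized counts) and Foxp3 (14546 to 24370) were high in every library. The miRNA genes Mir15a, Mir15b, Mir16-1 and Mir16-2 are listed at 0 in all 14 libraries, so they do not check the deletion. Dleu2, the host transcript of the miR-15a cluster, had 2121 to 2713 normalized counts in cKO Tregs and 86.3 to 1100 in WT Tregs. Il2ra, which encodes CD25, had 14682 and 15027 normalized counts in CD25lo and 39583 to 41188 in CD25hi Tregs. The libraries differed in 3 further ways that move with the groups. Xist was high in all 5 cKO libraries and in WT replicate 3 alone, while the Y-linked Ddx3y was high in the other 8. The 24 immediate early and stress genes summed to 383633 to 742656 normalized counts in cKO Tregs and 305786 to 840286 in WT Tregs (10 of 24 at an unadjusted p under 0.05, 1 called), with WT replicate 4 far below the other 3. They summed to 276476 and 321516 in CD25lo Tregs and to 234234 to 283524 in CD25hi Tregs. The 12 myeloid markers summed to 544 to 5417 normalized counts in cKO Tregs and 1147 to 9461 in WT Tregs (0 of 12 called, 5 at an unadjusted p under 0.05, median log2 fold change −1.48).

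Per kb of exon, 6 of the 13 mitochondrial mRNAs (mt-Co1, mt-Cytb, mt-Nd1, mt-Nd2, mt-Nd5 and mt-Nd4) lay above every nuclear member. Together the mt- genes took 1.79% to 2.23% of all normalized counts in cKO Tregs, 2.32% to 2.85% in WT Tregs, 2.17% and 2.22% in CD25lo Tregs and 2.39% to 2.61% in CD25hi Tregs. The highest cKO library lay below the lowest WT library. The 84 nuclear members together took 0.445% to 0.504% in cKO Tregs, 0.502% to 0.510% in WT Tregs, 0.468% and 0.496% in CD25lo Tregs and 0.504% to 0.548% in CD25hi Tregs. Mitochondrial to nuclear counts stood at 3.66 to 4.61 in cKO Tregs and 4.58 to 5.58 in WT Tregs, where only cKO replicate 2 reached the WT range, and at 4.48 and 4.65 in CD25lo Tregs and 4.57 to 5.03 in CD25hi Tregs. In bulk RNA, less mRNA per cell and fewer cells that carry it cannot be told apart.

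Levels between genes are compared per kilobase of exon, where the length covers all exons annotated for the gene in any of its transcripts. mt-Co1, a catalytic subunit of complex IV, averaged 172663 normalized counts per kb over the 14 libraries, followed by mt-Cytb of complex III with 154084 and mt-Nd1 of complex I with 109644. By this measure the catalytic subunits of the ATP synthase led among nuclear members, Atp5a1 with 6036 and Atp5b with 4006 normalized counts per kb. The highest nuclear member of the other complexes was Ndufa13 for complex I (2078), Sdha for complex II (2224), Uqcrh for complex III (3284) and Cox4i1 for complex IV (3472). The median of the nuclear members with any read was 679 per kb in complex I, 1012 in II, 1143 in III, 861 in IV and 643 in V. The exon length can far exceed the longest protein-coding transcript. It was 4237 against 1916 bases for Atp5b, 3135 against 2674 for Atp5a1, 1237 against 547 for Uqcrh and 6443 against 544 for Atp5l. The order of the nuclear members and of the complexes therefore depends on the length chosen.

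Only 7 of the 13 mitochondrial mRNAs could be measured. mt-Co2, mt-Co3, mt-Atp6, mt-Atp8 and mt-Nd4l are listed at 0 in every library, and mt-Nd3 is listed at 0 in all but cKO replicate 2, where it had 11.2 normalized counts. These include the 2 ATP synthase subunits and core subunits of complex IV that respiring cells make. The sequences of the genes were therefore compared with all annotated transcripts at the read length of 50 bases. Every 50-base stretch of mt-Co2 occurs unchanged in a nuclear pseudogene, as do 99.9% of the stretches of mt-Co3, 99.5% of mt-Atp6, 98.8% of mt-Nd4l and 98.0% of mt-Nd3. These copies are Gm28661, Gm28437, Gm10925, Gm10222 and Gm28438 on chromosome 1, and their own highest values in any library were 54.6, 0, 37.3, 1.9 and 5.2 normalized counts. One such stretch, bases 318 to 367 of the mt-Co2 transcript, also found in Gm28661 and Gm13341, shows what a read from either place would look like.
mt-Co2: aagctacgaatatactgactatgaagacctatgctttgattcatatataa
The abundant mt-Nd4 and mt-Co1 shared 62.2% and 51.1% of their stretches, mt-Nd2 8.19% and mt-Nd5 7.61%, and mt-Nd1, mt-Cytb and mt-Nd6 none. mt-Atp8 shared no stretch with an annotated gene and was still listed at 0. How reads with several matching places were counted is not given in the sources used here, and its part in the zeros was not tested. The same holds for the levels of the measurable mitochondrial mRNAs and of the nuclear members. Of the 84 nuclear members 45 shared at least 1 stretch with another annotated gene (median 0.74%). In 2 of them, Atp5l (84.8%) and Atp5o (50.3%), the share was 50% or more. The search covered annotated transcripts and not the whole genome.

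**Figure D1:**
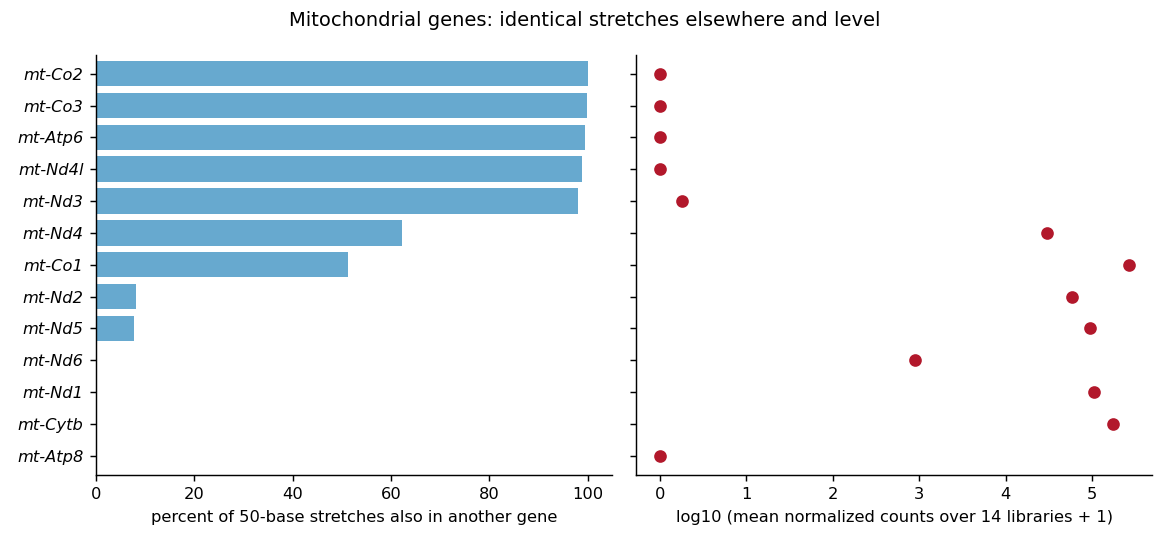
For each of the 13 mitochondrial genes, the bars on the left give the percent of 50-base stretches found unchanged in another annotated gene, and the points on the right the log10 of the mean normalized count over 14 libraries plus 1. The 5 genes with 98.0% or more of their stretches shared lie at or next to 0, as does mt-Atp8 with none. The remaining genes, with 62.2% or less, lie near 3 or above.

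In cKO against WT Tregs, 5 mitochondrial mRNAs fell and 1 nuclear member, Ndufa4, rose, out of 85 members tested (limma on log2 values, Benjamini-Hochberg adjusted p below 0.05 over all 16241 genes tested). Over all genes tested 3.52% were called, 2.04% higher and 1.48% lower. A set high level of normalized counts was reached by 5830 of the genes tested, here called high-level genes. Of these 7.72% were called, beside 7.06% of the members, so the members as a whole were not called more often than high-level genes. By genome, 5 of the 7 mitochondrial mRNAs tested and 1 of the 78 nuclear members were called. The 5 encode subunits of complex I (mt-Nd1, mt-Nd2, mt-Nd4, mt-Nd5) and cytochrome b of complex III (mt-Cytb), all of which carry or pass electrons or protons in the inner membrane.

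mt-Nd5 (GRCm38 MT:11742-13565, plus strand), a proton-pumping subunit of complex I, had 71781, 74656, 62426, 84870 and 82982 normalized counts in cKO Tregs, against 116589, 119115, 104846 and 99582 in WT Tregs. Each cKO library lay below each WT library, and the level fell by 31.8% (log2 fold change −0.55 ± 0.08 SE, adjusted p = 0.001, limma). mt-Cytb (MT:14145-15288, plus strand), the only mitochondrial subunit of complex III, had 136745, 148134, 135675, 160963 and 164023 normalized counts in cKO Tregs, against 215812, 235360, 196766 and 174261 in WT Tregs. These groups did not overlap either (−0.46 ± 0.09 SE, adjusted p = 0.0048).

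mt-Nd4 (MT:10167-11544), another proton-pumping subunit, had 22360, 24248, 21389, 29025 and 27308 normalized counts in cKO Tregs, against 35218, 41069, 32567 and 29868 in WT Tregs. mt-Nd1 (MT:2751-3707), which lies where complex I takes up ubiquinone, had 85214, 95585, 82202, 105361 and 93537 in cKO Tregs, against 122170, 136500, 116847 and 105640 in WT Tregs. In both genes cKO replicate 4 came close to WT replicate 4 without crossing it (adjusted p = 0.0077 and 0.0098). mt-Nd2 (MT:3914-4951) averaged 50613 ± 5178 in cKO Tregs and 66883 ± 8989 in WT Tregs (SD, n = 5 and 4), where cKO replicate 4 exceeded WT replicate 4 (−0.40 ± 0.09 SE, adjusted p = 0.0125).

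mt-Co1 (MT:5328-6872), which holds the oxygen-binding site of complex IV, had 216490, 250564, 207574, 280928 and 249304 normalized counts in cKO Tregs, against 299976, 325237, 296096 and 261697 in WT Tregs. It was not called by limma (−0.30 ± 0.09 SE, adjusted p = 0.072), while DESeq2 (0.0036) and edgeR (0.045) called it lower. Its adjusted p ran from 0.0036 to 0.80 over the alternatives. mt-Nd6 (MT:13552-14070), the only one of the 13 on the minus strand, had 759, 1261, 979, 1418 and 920 in cKO Tregs, against 1060, 691, 1061 and 660 in WT Tregs. It was not called and its estimate was positive (0.30 ± 0.21 SE, adjusted p = 0.54). Its 3′ end overlaps that of mt-Nd5, and whether strand was used in counting is not given in the sources used here.

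The 6 abundant plus-strand mRNAs varied together. Over the 14 libraries the 15 correlations between pairs of them ran from 0.88 to 0.97 on the log2 scale (median 0.94), and those of mt-Nd6 with the 6 from −0.37 to −0.11. These values describe libraries that share scaling and groups and carry no test.

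**Figure D2:**
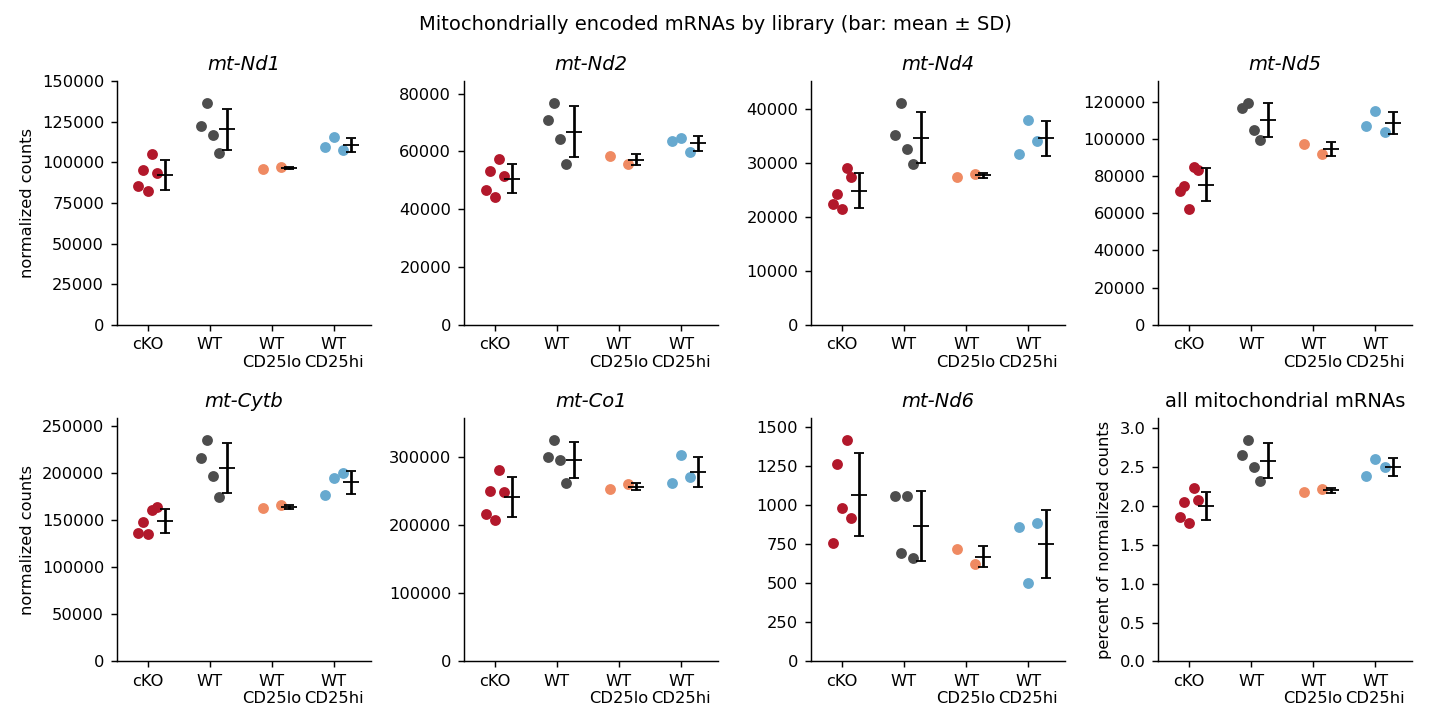
Normalized counts of the 7 measurable mitochondrial mRNAs, and the percent of normalized counts taken by all mitochondrial mRNAs, in each library (points) with mean and SD (bars) for 5 cKO, 4 WT, 2 CD25lo and 3 CD25hi libraries. For mt-Nd1, mt-Nd4, mt-Nd5 and mt-Cytb every cKO point lies below every WT point, and for mt-Nd6 the cKO and WT points overlap.

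The 5 calls held in each of the 14 fits that left out 1 library (highest adjusted p of 0.049, for mt-Nd2), with the immediate early level as a term (adjusted p of 0.00014 to 0.0026), and with counts in DESeq2 and edgeR. mt-Nd2 lost the call when only the cKO and WT libraries were fitted (adjusted p = 0.057). A fit with a term for sex, read from Xist, sets the cKO libraries against WT replicate 3 alone. There the estimates were −0.49 to −0.35 and none of the 5 was called (adjusted p of 0.31 to 0.66), so with 1 female WT library genotype and sex cannot be told apart for these genes. The part of the myeloid RNA in the lower levels was not tested.

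Ndufa4 (GRCm38 chromosome 6:11900292-11907497, minus strand), named for complex I and known as a subunit of complex IV, moved in opposite directions in the 2 comparisons. It had 1919, 1859, 2043, 2046 and 2059 normalized counts in cKO Tregs, against 1283, 1795, 1370 and 1227 in WT Tregs. The cKO libraries all lay above the WT libraries, and the level was 41.4% higher (log2 fold change 0.50 ± 0.12 SE, adjusted p = 0.028). In CD25lo Tregs it had 1248 and 916 normalized counts, against 1520, 2062 and 1784 in CD25hi Tregs. Both CD25lo libraries lay below all 3 CD25hi libraries, and the level fell by 39.7% (−0.73 ± 0.17 SE, adjusted p = 0.032). The change in cKO minus the change in CD25lo, which share no library, was 1.23 ± 0.21 SE on the log2 scale (adjusted p = 0.0081). Ndufa4 was the only one of 85 members called for that difference, where 1.03% of all genes and 2.21% of high-level genes were. The call in cKO was lost in 7 of the 14 fits that left out 1 library (without WT replicate 1, 3 or 4 or cKO replicate 1, 3, 4 or 5; adjusted p up to 0.082) with no filter on low values, and with the term for sex (0.624), so here too genotype and sex cannot be told apart. The call in CD25lo was lost in 3 (without CD25hi replicate 2 or 3 or CD25lo replicate 2, adjusted p up to 0.34) and with no filter on low values. It was also lost when only the CD25lo and CD25hi libraries were fitted (0.375), a fit that called 0 of all genes tested. The difference was lost without CD25lo replicate 2 (adjusted p = 0.066) and with the term for sex (0.082).

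The other nuclear members lay close to the spread between libraries. In cKO against WT Tregs 31 nuclear members had positive and 47 negative estimates, with a median of −0.05 beside 0.05 over all genes tested. The high-level genes had a median of −0.0085. The nuclear medians were −0.09 for complex I (36 tested), −0.02 for II (4), −0.24 for III (8), 0.09 for IV (13) and −0.05 for V (17), and the 5 mitochondrial complex I mRNAs had a median of −0.40. Without WT replicate 2 the complex IV median was −0.06. Within complex I, 23 of 36 nuclear members had negative estimates and 0 were called lower, while 4 of the 5 mitochondrial members were called lower. The difference between the 2 genomes is given as these counts and carries no test of its own.

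Among all members tested, 7 were lower in cKO with no overlap of the groups, beside 3.62% of all genes. Besides 4 mitochondrial mRNAs these included Ndufb3 and Uqcrq. The 3 that were higher with no overlap, beside 4.92% of all genes, were Ndufa4, Ndufb5 and Ndufc1. Ndufc1, a small accessory subunit, had 238, 248, 221, 291 and 186 in cKO Tregs, against 166, 13.1, 165 and 182 in WT Tregs, with WT replicate 2 far below the rest. It did not pass the test (1.36 ± 0.58 SE, adjusted p = 0.24).

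Per complex, the nuclear or mitochondrial member with the smallest p in cKO against WT Tregs was mt-Nd5 for I, Sdhd for II, mt-Cytb for III, mt-Co1 for IV and Atp5b for V. Atp5b, the catalytic beta subunit of the ATP synthase, had 15587, 14772, 14997, 16798 and 16226 normalized counts in cKO Tregs, against 18710, 18665, 18264 and 16572 in WT Tregs. Only cKO replicate 4 exceeded the lowest WT library (−0.20 ± 0.06 SE, adjusted p = 0.071 in limma). DESeq2 (adjusted p = 0.0089), limma-voom, the fit with the immediate early level and the stricter filter on low values called it lower, and its adjusted p ran from 0.0089 to 0.747 over the alternatives. Sdhd, a membrane anchor of complex II, had 1331 to 1535 normalized counts in cKO Tregs and 1298 to 1537 in WT Tregs (−0.06 ± 0.10 SE, adjusted p = 0.83).

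**Figure D3:**
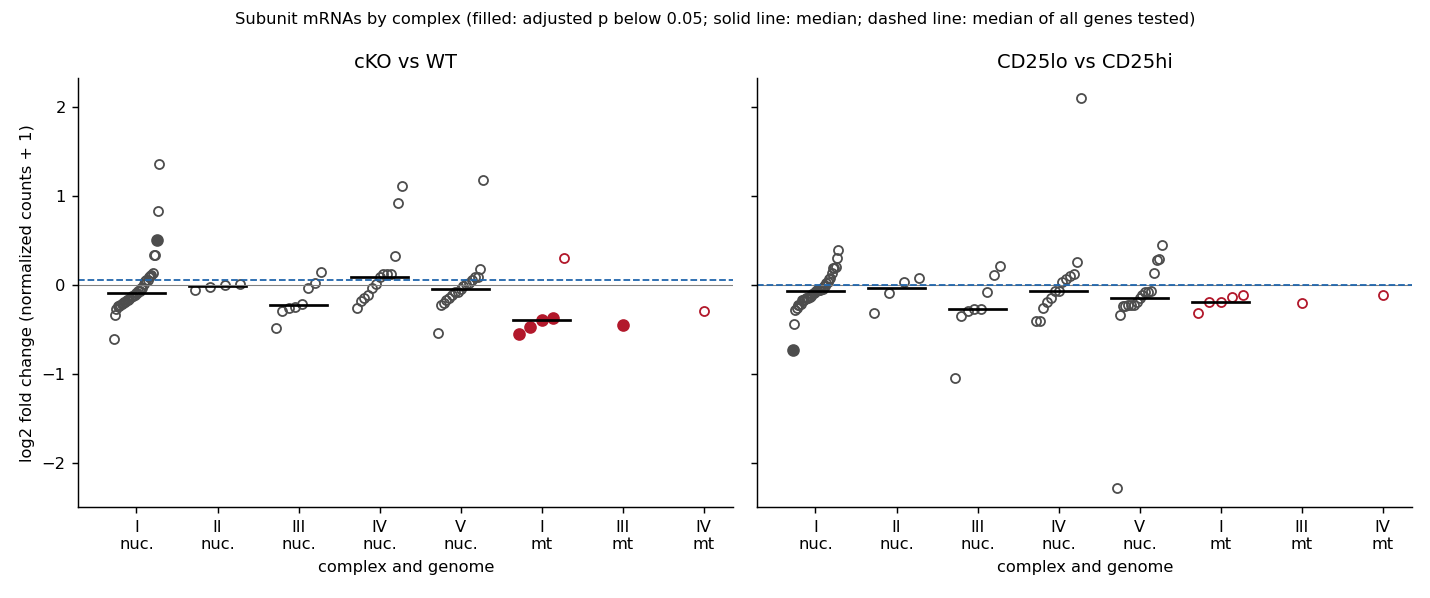
Log2 fold changes of the 85 members tested, by complex and genome, in cKO against WT Tregs (left) and CD25lo against CD25hi Tregs (right); filled points passed the test, solid lines are medians of groups with more than 1 member, and the dashed line is the median of all genes tested. On the left 5 of 7 mitochondrial points are filled and lie below 0, and on the right the only filled point is Ndufa4.

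In CD25lo against CD25hi Tregs, 1 of the 85 members was called, Ndufa4, which was lower. Over all genes tested 1.62% were called, 0.61% higher and 1.01% lower. Of the high-level genes 2.90% were called, beside 1.18% of the members, and their median log2 fold change was 0.02. Estimates were negative for 61 of the 85 members and for all 7 mitochondrial mRNAs, with a median of −0.11 for the members beside 0 over all genes tested. The mitochondrial estimates ran from −0.32 for mt-Nd4 to −0.11, and none was called by limma or DESeq2 (1 at an unadjusted p under 0.05 in limma). In mt-Nd5 the CD25lo libraries had 97229 and 91695 normalized counts, against 106723, 114821 and 103845 in CD25hi Tregs (−0.20 ± 0.11 SE, adjusted p = 0.47). In mt-Cytb they had 162959 and 165835, against 176452, 194958 and 199864 (−0.21 ± 0.12 SE, adjusted p = 0.46). For mt-Nd5 the change in cKO minus the change in CD25lo was −0.35 ± 0.14 SE (adjusted p = 0.26), and no mitochondrial mRNA was called for that difference, so these data do not separate the 2 comparisons for those genes.

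The 22 members lower in CD25lo with no overlap of the groups stand beside 11.6% of all genes, and the 4 higher ones beside 12.9%. The 22 include 6 mitochondrial mRNAs and 6 nuclear ATP synthase genes. The members with the smallest p per complex were Ndufa4, Sdhb, Uqcr11, Cox6c and Atp5b. Cox6c, a small subunit of complex IV, had 1314 and 1305 normalized counts in CD25lo Tregs, against 1777, 1753 and 1699 in CD25hi Tregs (−0.41 ± 0.13 SE, adjusted p = 0.14). Atp5b had 15617 and 15705, against 17228, 19413 and 19085 (−0.24 ± 0.08 SE, adjusted p = 0.16). Sdhb, the iron-sulfur subunit of complex II, had 1889 and 1688, against 2353, 2080 and 2271 (−0.32 ± 0.13 SE, adjusted p = 0.28). In these 3 genes the groups did not overlap but limma's test was not passed. DESeq2 called Atp5b lower (adjusted p = 0.040), with a range of 0.040 to 0.396 over the alternatives. Uqcr11, a small subunit of complex III, overlapped, with 185 and 77.7 normalized counts in CD25lo Tregs, against 179, 330 and 263 in CD25hi Tregs (−1.05 ± 0.42 SE, adjusted p = 0.27).

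The nuclear medians in CD25lo against CD25hi Tregs were −0.08 for complex I, −0.04 for II, −0.27 for III, −0.07 for IV and −0.15 for V. Complex III thus had the lowest nuclear median in each comparison, with 6 of 8 members negative both times and 0 called by limma (2 at an unadjusted p under 0.05 each time). The complex IV median was 0.09 without CD25hi replicate 1 and −0.22 without CD25hi replicate 2.

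**Figure D4:**
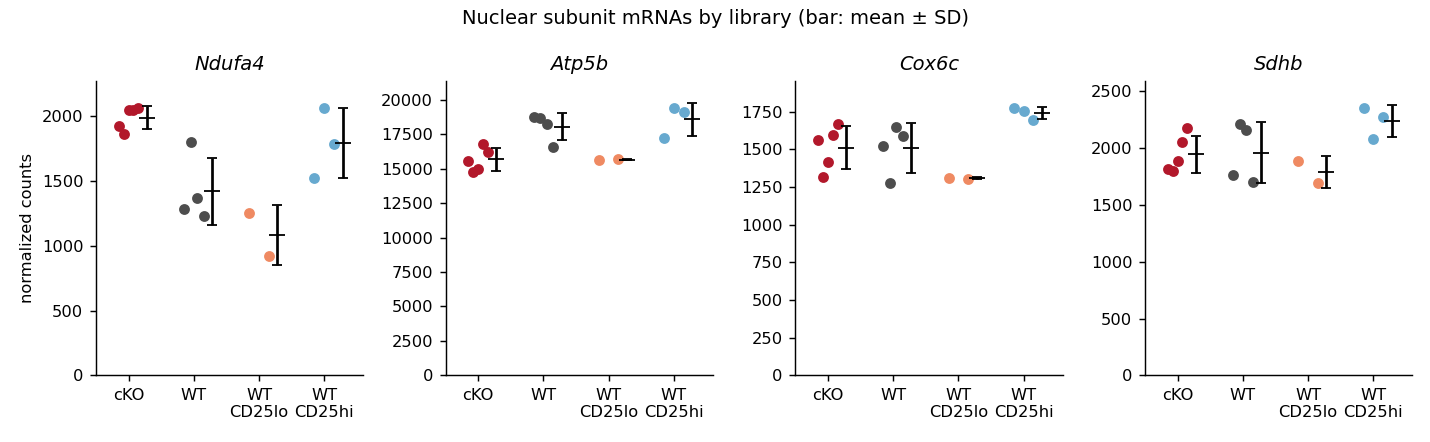
Normalized counts of Ndufa4, Atp5b, Cox6c and Sdhb in each library (points), with mean and SD (bars). Ndufa4 is the only one of the 4 that was called, with cKO libraries at 1859 to 2059 above WT at 1227 to 1795, and CD25lo at 916 and 1248 below CD25hi at 1520 to 2062.

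Several subunits exist in alternative forms, of which one is broadly used and others are known from muscle, testis, lung or low-oxygen cells. In the Tregs Cox4i1, Cox6a1, Cox6b1, Cox7b, Cox8a and Ndufa4 each lay far above the restricted forms of the same subunit. Cox4i2, the hypoxia-linked form, had reads in 3 of 14 libraries (at most 17.3 normalized counts), against 4158 to 6442 for Cox4i1. The muscle forms Cox6a2 and Cox8b, the testis forms Cox7b2 and Cox8c, and the hypoxia-induced Ndufa4l2 are listed at 0 in every library, and the muscle form Cox7a1 reached 10.6 normalized counts at most, against 427 or more for Cox7a2. Cox6b2, known from testis, made up 0% to 2.39% of Cox6b counts per kb (median 0.96%). Among the 3 genes that encode the identical mature subunit c of the ATP synthase, Atp5g3 carried 91.7% to 97.9% of counts per kb, Atp5g1 1.67% to 5.13% and Atp5g2 0.31% to 4.50%. The exon length of Atp5g1, 4912 bases, includes its longest 3′ UTR, whose use in Tregs was not tested. Of counts not divided by length, Atp5g3 carried 86.8% to 95.9%, Atp5g1 3.70% to 10.9% and Atp5g2 0.24% to 3.37%. Cox7a2l exceeded Cox7a2 per kb in every library (66.5% to 84.5% of the 3 Cox7a genes). Of the 12 members that were not tested for low values, 6 are the mitochondrial genes named above and 6 are among these alternative forms.

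**Figure D5:**
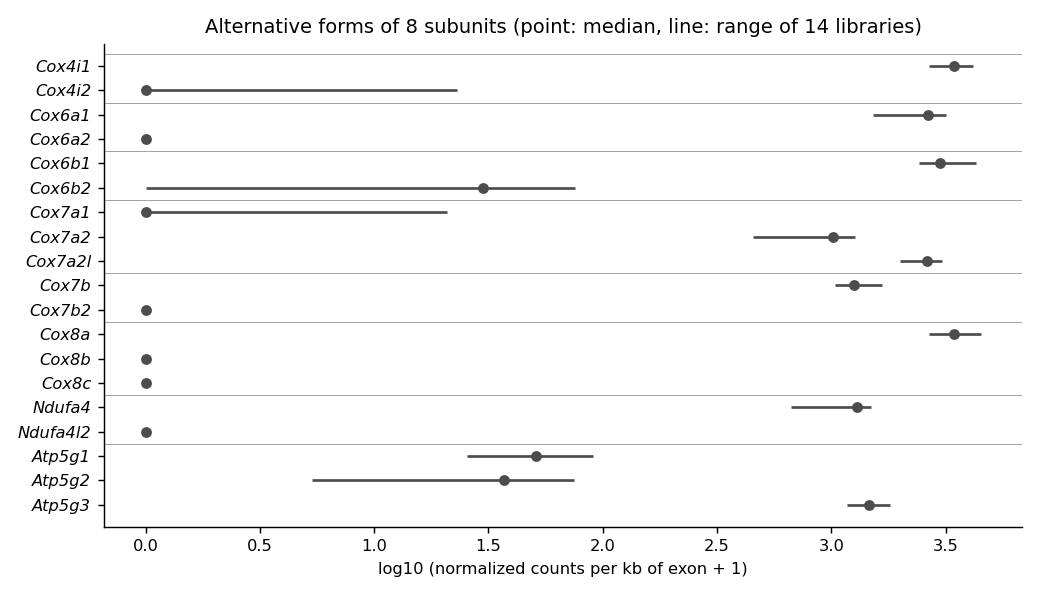
Log10 of normalized counts per kb of exon plus 1 for the alternative forms of 8 subunits, with the median (point) and range (line) over 14 libraries. Cox4i1, Cox6a1, Cox6b1, Cox7a2, Cox7b, Cox8a, Ndufa4 and Atp5g3 have medians near 3 or above, while Cox6a2, Cox7b2, Cox8b, Cox8c and Ndufa4l2 lie at 0.

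The genes that serve these complexes were taken from fixed lists, whose counts stand beside 3.52% of all genes called in cKO against WT Tregs and 1.62% in CD25lo against CD25hi Tregs. In cKO against WT Tregs 0 of 22 electron carriers and other entry points, 0 of 15 complex I assembly factors, 0 of 18 genes of mitochondrial DNA upkeep and transcription and 0 of 19 genes of mitochondrial RNA processing and stability were called (0, 1, 1 and 3 of them at an unadjusted p under 0.05). Their medians ran from −0.06 to 0.02, beside 0.05 over all genes tested and −0.0085 over the high-level genes. Of 33 assembly factors of complexes II to V, Cox15, which makes the heme of complex IV, was higher (1116 ± 36.8 normalized counts in cKO Tregs, against 789 ± 176 in WT Tregs, SD, adjusted p = 0.0497), and Sdhaf1, which helps to insert the iron-sulfur clusters of complex II, was lower (1492 ± 247 against 2143 ± 156, adjusted p = 0.024). Of 18 genes of the tricarboxylic acid cycle and its entry, Pdha1, a subunit of pyruvate dehydrogenase, was lower (5624 ± 387 against 6830 ± 405, adjusted p = 0.0197). With WT replicate 3 as the only WT library high in Xist, genotype and sex cannot be told apart for Cox15, Sdhaf1 and Pdha1. The same holds for Myc in cKO against WT Tregs, given below.

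Of 14 regulators of respiratory genes, 1 was called in each comparison (beside the same 3.52% and 1.62%), and it was Myc, a transcription factor that promotes growth and mitochondrial biogenesis. It had 4741 ± 379 normalized counts in cKO Tregs and 6913 ± 718 in WT Tregs (−0.54 ± 0.08 SE, adjusted p = 0.00076), and 5648 ± 133 in CD25lo Tregs and 8379 ± 708 in CD25hi Tregs (−0.57 ± 0.11 SE, adjusted p = 0.012). Supv3l1, a helicase of mitochondrial RNA decay, was the other called gene of these lists in CD25lo against CD25hi Tregs (672 ± 54.7 against 1070 ± 92.9, adjusted p = 0.034).

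The start regions of the nuclear members were searched for cores of 3 factors known to act on respiratory genes, on both strands of 250 bases before to 50 after the start (RefSeq, GRCm38.p6; 69 of 84 nuclear members matched). The NRF1 core GCGCATGC was found in 14.5% of the members and 5.91% of the 10252 tested genes that matched. The YY1 core AAGATGG was found in 17.4% and 8.36%, and the ETS core CCGGAAG in 23.2% and 19.96%. Ndufa4, the nuclear member that was called, held none of the 3 in its window. Over all 32851 windows of the table, which include non-coding and rarely read genes, the shares were 2.71%, 6.34% and 8.86%.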

How the data were processed

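The authors sequenced single-end 50-base reads, aligned them to GRCm38 with STAR 2.7.2b and normalized them with DESeq2 1.24.0. The deposited values used here are signal values, normalized counts equal to reads divided by a library size factor. Whole reads were recovered from them (99.7% to 100% of values within 0.055 of a whole number). A further 14 columns of stabilized values and the columns of the authors' own comparisons (fold changes and p-values) were not used. Genes with at least 10 normalized counts in at least 2 of 14 libraries (16241) were fitted as log2(value + 1) with 4 group means in limma 3.58.1 (trended variance), with Benjamini-Hochberg adjustment and a threshold of 0.05. Alternatives used edgeR 4.0.16, DESeq2 1.42.0, limma-voom, other pseudocounts, filters and scalings, added terms and left-out libraries. The fit was tested on simulated data. Genes named are the 13 mitochondrial genes, all called members, the smallest p per complex and comparison, the alternative forms, and up to 4 called genes per other list. The members and lists were chosen with earlier results of these data known. Sequences are from RefSeq and GENCODE M21. The values of 1 member are not reported here.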

Additional observations from a re-analysis of the deposited data

Results flagged for a closer look

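Over 25 named members and the 2 summed shares, 53 groups of 4 or 5 libraries were checked for a library far from the rest, and 3 were found, where chance gives about 1 in 20. Cox6b1 had 3052 normalized counts in WT replicate 2, above the other WT libraries. Sdhd had 1535 in cKO replicate 3, above the other cKO libraries. Cox4i2 had 14.9 in cKO replicate 2, above the other 4 cKO libraries, of which 3 are listed at 0. The change of Ndufa4 in cKO against WT Tregs exceeded its change in CD25lo against CD25hi Tregs by 1.23 on the log2 scale.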

How the results depend on the processing

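Of the directions, none of a called value reversed under the 29 alternatives. In cKO against WT Tregs the count of members called higher (1) was 0 with no filter, with a replicate block and with the term for sex, 2 with the immediate early level as a term, and 0 to 1 when 1 library was left out. The count called lower (5) was 8 with DESeq2 and with the immediate early term and 0 with the term for sex. In CD25lo against CD25hi Tregs the count called lower (1) was 2 with DESeq2, 0 with no filter, with a replicate block and with only the CD25 groups fitted, and 0 to 1 with 1 library left out. The fit of only the CD25 groups called 0 of all genes tested. For the difference of the comparisons the count (1) was 0 with a replicate block and with the term for sex, and 0 to 1 with 1 library left out. With WT replicates 2 and 4 both left out, chosen after seeing the data, the complex IV nuclear median in cKO was −0.0456. With the term for sex the complex III median was −0.377 and that of complex V −0.123. With 1 library left out the complex IV median ran from −0.062 to 0.117 in cKO and from −0.224 to 0.0854 in CD25lo Tregs, and that of complex V from −0.198 to −0.0693 in CD25lo Tregs. The cause of these shifts was not tested. Same-numbered libraries deviated with correlations of −0.32 to −0.10 (cKO and WT) and −0.06 and 0.02 (CD25lo and CD25hi). These values gave no sign of pairing by replicate number. The deviations of the 2 CD25lo libraries mirror each other, so whether same-numbered CD25 bins came from the same mouse cannot be judged. The block left the 5 lower mitochondrial mRNAs called but not Ndufa4 (adjusted p = 0.122 in cKO, 0.12 in CD25lo and 0.0667 for the difference). Few CD25lo libraries and the zeros of 6 mitochondrial genes limit what these data can show.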
